A study of Homo sapiens with 6 samples.

Results

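The genes described here belong to the signalling route that runs from the epidermal growth factor receptor through RAS, RAF and MEK, together with inhibitors that the route induces against itself. They were chosen by name, as *EGFR*, *NRAS*, *HRAS*, *BRAF*, *MAP2K1*, *DUSP6*, *SPRY2* and *SPRY4*, and all 8 were found among the 15917 genes of the authors' deposited table. The series holds total RNA-seq of MDA-MB-231, an established human breast cancer line, in 6 libraries. Of these, 2 came from cells with the control hairpin shCTRL (labelled wild type), 2 from cells with the hairpin shRBMS3-B3 (labelled RBMS3 KD1) and 2 from cells with the hairpin shRBMS3-C3 (labelled RBMS3 KD2), all grown in the same serum-containing medium. Per the study's methods, hairpins against *RBMS3* were delivered by lentivirus. The study asked which transcripts depend on RBMS3, an RNA-binding protein that the 2 hairpins silence.

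In this route a ligand-bound receptor recruits adaptors and an exchange factor that load RAS with GTP, and RAS then brings RAF to the membrane. RAF phosphorylates MEK, the product of *MAP2K1* and *MAP2K2*, and MEK phosphorylates ERK. Active ERK raises transcription of dual-specificity phosphatases and Sprouty genes, whose products dampen the signal, so that transcripts of these inhibitors are often read as a sign of ERK activity.

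The measure used is the mean normalized count, an average over the authors' libraries with no value for a single library. It gives a single level of each gene in this cell line and no error. The libraries that enter the mean are not named in the table, so it may pool control and knockdown cells and may not cover every library. The table also holds the authors' own comparison of knockdown and control cells, which was left out here, so no difference between them is given for any of the 8 genes. Neither the hairpins nor the replicates could be compared from a mean. The depth of each library is unknown. *RBMS3* itself had a mean normalized count of 272, and whether it fell in the knockdown libraries could not be checked from a mean.

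The label of the cell line was set against marker genes. The mesenchymal filament gene *VIM* and the adhesion receptor gene *CD44* had mean normalized counts of 69335 and 10047. Epithelial markers were divided. The keratin genes *KRT8* and *KRT18*, typical of luminal epithelium, had mean normalized counts of 17802 and 12689. The marker list had placed them with *VIM* and *CD44*, for a mesenchymal-like breast carcinoma line. Of the markers listed for luminal or epithelial breast cells, *ESR1* and *PGR* were not listed in the table. *CDH1* had a mean normalized count of 31.6 and *EPCAM* one of 107. Among markers of other cell types, the leukocyte gene *PTPRC* was not listed, while *PECAM1* and *COL1A1* had mean normalized counts of 69.0 and 192. Genes with a mean below 26.7 do not appear in the table, so a gene that is not listed may be low or absent.

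The study ties RBMS3 to an AUA-rich element in 3′UTRs, and this element was looked for in the 8 genes. The element has 7 bases: any base but C, then A or T, then ATA, then A or T, then A. It was searched on the transcript strand, with overlapping matches counted, in the 3′UTR of one representative transcript per gene (GENCODE release 44, GRCh38). A match was found in 7 of the 8 genes, and in 84.8% of the 12350 listed genes that have an annotated 3′UTR. To show what such a match looks like, the one nearest the annotated transcript end is printed for each of 6 genes, with the 7 bases in capitals and 9 bases on either side, and for *SPRY4* the run of overlapping matches near its end, with 5 bases on either side.
EGFR, chr7:55210792-55210816, plus strand: ctagtaataAAATATAatattcttg
NRAS, chr1:114704487-114704511, minus strand: atgtttaaaAAATAAAaactggaag
BRAF, chr7:140730673-140730697, minus strand: tctattcctAAATAAAgttaacttg
MAP2K1, chr15:66491510-66491534, plus strand: tatactatgAAATAAAaaaaaaagg
DUSP6, chr12:89347248-89347272, minus strand: cacaaaccaAAATAAAaggcaggtg
SPRY2, chr13:80335985-80336009, minus strand: taaaatagaAAATATAttaacgttt
SPRY4, chr5:142310449-142310477, minus strand: ttagaAAATATATATAAATATATAttgtt

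In *NRAS*, *BRAF*, *MAP2K1* and *DUSP6* the last match reads AAATAAA, which contains AATAAA, the canonical polyadenylation signal. These matches end 27, 17, 19 and 22 bases before the annotated transcript end. The AUA element as written includes this signal whenever the base before it is not C, and 21 of the 57 matches in the 8 genes (36.8%) hold it, against 36.0% of the matches over all listed genes. A match within 50 bases of the annotated end was present in 6 of the 8 genes and in 59.3% of all genes with a 3′UTR, and one that holds AATAAA in 4 of the 8 and in 52.8% of all. The 57 matches form 47 stretches once overlaps are joined. The study reports the AUA element as enriched among RBMS3 binding sites mapped by CLIP-seq, and names AATAAA as the top motif in them. A match here is a description of the sequence alone. Whether RBMS3 binds at any of these matches was not tested, as no binding site was looked up for the 8 genes.

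*EGFR*, on chromosome 7 from 55019017 to 55211628, encodes the receptor tyrosine kinase at the head of the route. It had the highest mean normalized count of the 8 genes, 10930, which ranked 223 of all 15917 genes and lay at percentile 98.6, the share of listed genes with a lower value. Longer transcripts give more reads, so levels were compared between genes per kilobase of the representative transcript. On that scale *EGFR* had 1103 normalized counts per kilobase, at percentile 90.6. Of its family, *ERBB2* had 342 and *ERBB3* 47.1 normalized counts per kilobase, and *ERBB4* was not listed. *EGFR* thus exceeded *ERBB2* by 3.23 times and *ERBB3* by 23.4 times per kilobase, and by 7.28 and 45.8 times when the coding length was used. The *EGFR* 3′UTR is long, at 6011 bases, and its 13 matches to the AUA element compare with a median of 14 among the 800 genes whose 3′UTR length lies within 20% of it. The first match begins 1694 bases after the stop codon and the last ends 821 bases before the transcript end. Overlapping matches form the stretch ttggtTTATATATATAatgtg (chr7:55210200-55210220, plus strand), where 3 share 11 bases.

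*NRAS* and *HRAS* encode small GTPases that pass the receptor's signal to RAF, and their proteins are of equal length, with 567 coding bases each. *HRAS*, on chromosome 11 from 532242 to 537321, had a mean normalized count of 2248, and *NRAS*, on chromosome 1 from 114704469 to 114716771, one of 1227. The transcripts differ in their 3′UTR, which measures 286 bases in *HRAS* and 3625 bases in *NRAS*. Per kilobase of transcript, *HRAS* had 2101 normalized counts, the highest of the 8 genes, and *NRAS* 284, a ratio of 7.41. The size of this difference rested on the length used: the ratio was 4.09 with the longest annotated transcripts and 1.83 with the coding length. By coding length *SPRY4*, at 4110 normalized counts per kilobase, exceeded *HRAS*, at 3966. The RAS-like genes of the wider list had 563 (*RRAS*), 356 (*RRAS2*) and 25.6 (*MRAS*) normalized counts per kilobase.

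The pair also differed in the AUA element. *NRAS* held 8 matches, equal to the median of 8 among 1535 genes with a 3′UTR of similar length. *HRAS* held none, and with 39.2% A+U its 3′UTR lay at percentile 5.41 of A+U content. A match is less common in short 3′UTRs, with 67.8% of the 782 genes of similar length to *HRAS* holding one. Neither binding of RBMS3 to the *HRAS* transcript nor its response to the hairpins was examined here.

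**Figure D1:**
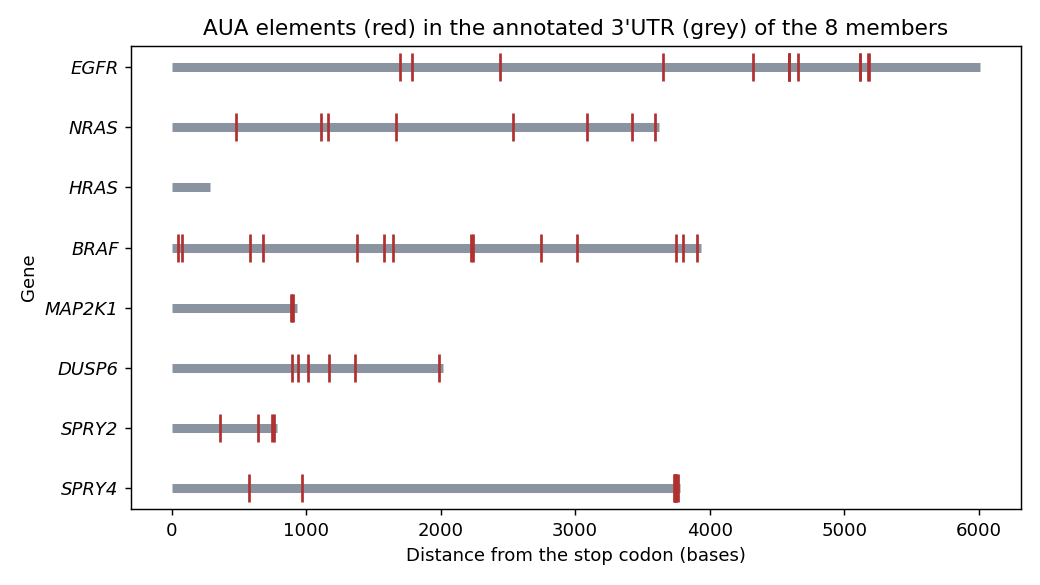
Map of the annotated 3′UTR of the representative transcript of each of the 8 genes (grey bars), drawn by distance in bases from the stop codon, with red ticks at each match to the AUA element. The ticks range from 0 in *HRAS* to 14 in *BRAF*, and in *MAP2K1* and *SPRY4* most of them crowd at the transcript end.

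*BRAF*, on chromosome 7 from 140719327 to 140924929, encodes a RAF kinase. It was the lowest of the 8 genes, with a mean normalized count of 604 (percentile 62.3) and 93.5 normalized counts per kilobase (percentile 40.2), and it alone lay below the middle of all listed genes per kilobase. Its relative *ARAF* was higher on this scale, at 407 normalized counts per kilobase. *ARAF* exceeded *BRAF* by 4.35 times per kilobase, and by 2.03 times with the coding length. The *BRAF* 3′UTR held the most matches of the 8, 14 in 3932 bases, against a median of 9 among 1429 genes of similar length. The first begins 43 bases after the stop codon, closer than in any of the other members with a match. *ARAF* held none in the 451-base 3′UTR of its representative transcript, but 10 in its longest annotated 3′UTR, of 621 bases, where *BRAF* held 20.

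*MAP2K1*, on chromosome 15 from 66386837 to 66491656, encodes the MEK1 kinase that phosphorylates ERK. Its mean normalized count was 1627, at percentile 84.2, and its level per kilobase was 639. *MAP2K2*, which encodes the closely related MEK2, had 3308 normalized counts per kilobase, more than *MAP2K1* by 5.18 times and, by coding length, by 3.45 times. All 3 matches of *MAP2K1* lie between 888 and 904 bases after the stop codon in a 3′UTR of 929 bases, so each of them begins within the last 50 bases. The first pair overlaps in the stretch tattcTAATAAATATActatg (chr15:66491498-66491518, plus strand). The short 3′UTR of *MAP2K2*, 277 bases, held no match.

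*DUSP6*, on chromosome 12 from 89347235 to 89352501, encodes a cytoplasmic phosphatase that inactivates ERK, and it had a mean normalized count of 4010 (percentile 94.8) and 1106 normalized counts per kilobase (percentile 90.6). *DUSP4*, a nuclear phosphatase of the same family, was higher still, with a mean normalized count of 10889 and 1961 normalized counts per kilobase, and *DUSP5* was lower, at 461 per kilobase. The 3′UTR of *DUSP6* has 2019 bases and 6 matches, against a median of 5 among 1743 genes of similar length. Of these, 5 lie between 897 and 1360 bases after the stop codon and one at its end.

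*SPRY4* and *SPRY2* encode Sprouty proteins, which restrain the route upstream of RAF. *SPRY4*, on chromosome 5 from 142310427 to 142326455, had a mean normalized count of 3687 (percentile 94.2) and *SPRY2*, on chromosome 13 from 80335976 to 80341126, one of 911 (percentile 72.1). Per kilobase the values were 752 for *SPRY4* and 398 for *SPRY2*, a ratio of 1.89 that became 4.27 with the coding length. *SPRY1* was close to *SPRY2*, at 447 normalized counts per kilobase, and *SPRY3* was not listed. The related Sprouty-domain genes *SPRED2*, *SPRED1* and *SPRED3* had 245, 168 and 54.5 normalized counts per kilobase. Without a spread between libraries, no pair of neighbours in these orders can be said to differ beyond error, and the order of *DUSP6* and *SPRY4* turned with the length used: *DUSP6* was 1.47 times as high as *SPRY4* per kilobase of transcript and 0.854 times as high by coding length.

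The Sprouty genes differ in the arrangement of the element. *SPRY2* holds 4 matches in 782 bases, or 5.12 per kilobase, in a 3′UTR with 69.6% A+U (percentile 94.0). This density is the highest of the 8 and above the median of 2.43 per kilobase over listed genes with an annotated 3′UTR. *BRAF*, *MAP2K1* and *DUSP6* also lay above that median, at 3.56, 3.23 and 2.97. For *MAP2K1* this rested on the representative 3′UTR of 929 bases, as its longest annotated 3′UTR, of 3673 bases, held 2 matches. Among 1260 genes with a 3′UTR of similar length to that of *SPRY2*, the median was 2 matches. *SPRY4* holds 9 matches in 3779 bases, equal to the median of 9 among 1475 genes of similar length. Of its matches, 7 end within 50 bases of the annotated end, and 6 of these overlap in the 19-base run printed above. With overlaps joined, *SPRY4* has 4 stretches and *SPRY2* has 4. The remainder of the *SPRY4* 3′UTR between 969 and 3737 bases after the stop codon is free of matches apart from those at its borders.

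**Figure D2:**
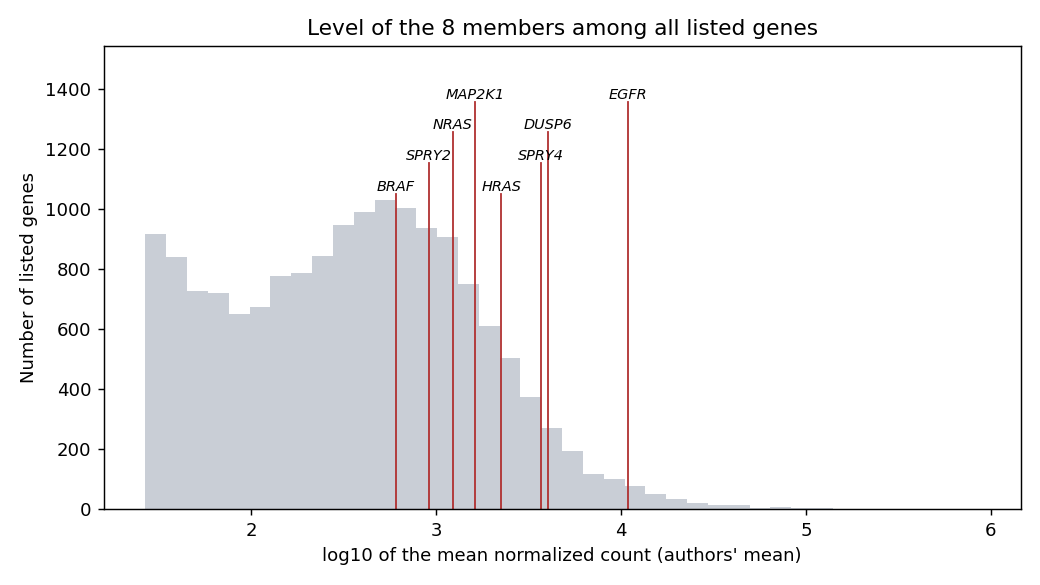
Histogram of the log10 mean normalized count of all 15917 listed genes (grey bars, number of genes on the vertical axis), with a red line at each of the 8 genes. All 8 lie above the median of 364, from *BRAF* at 604 to *EGFR* at 10930, and the height of a line only separates the names.

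Over the 8 genes, the median percentile was 86.6 by mean normalized count and 85.2 per kilobase. All 8 lay above the median mean normalized count of 364, 7 above the middle per kilobase, and 3 (*EGFR*, *DUSP6* and *SPRY4*) above percentile 90 by mean normalized count. The 3′UTR was longer than the median of 1378 bases in 5 of the 8.

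**Figure D3:**
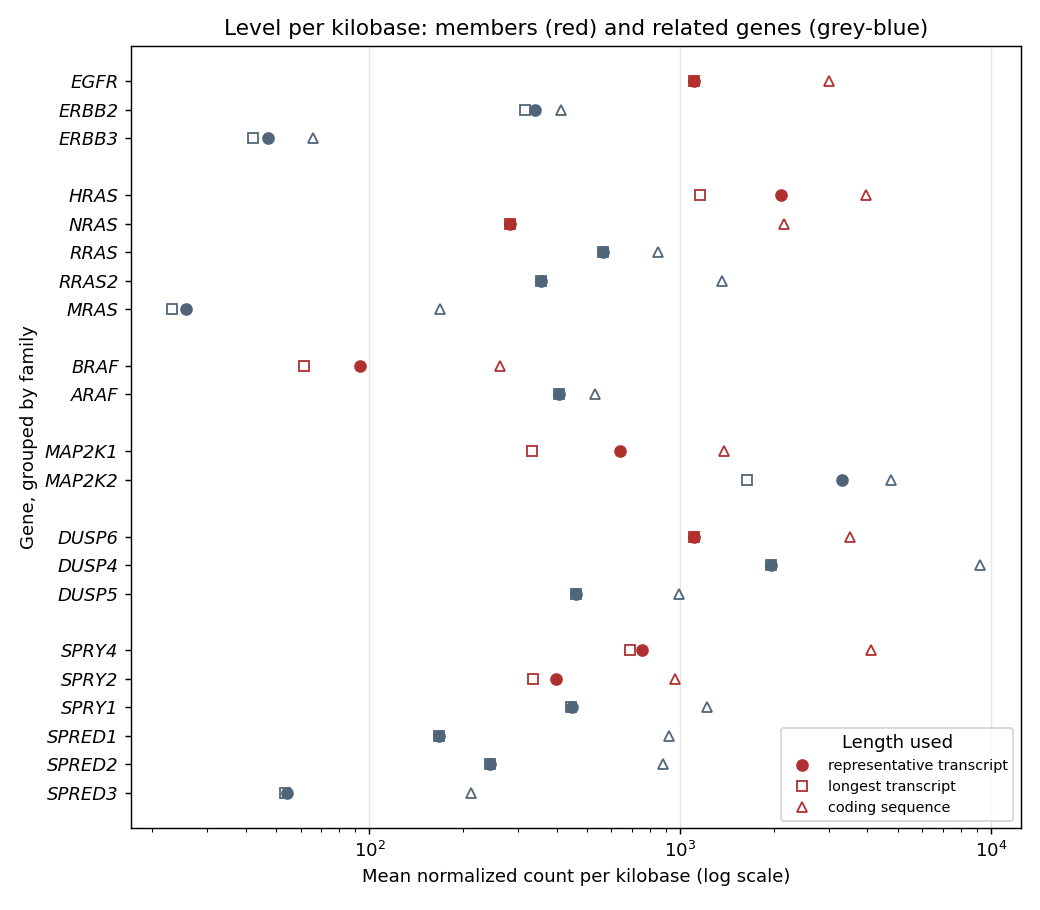
Mean normalized count per kilobase on a log scale for the 8 genes (red) and related genes that the table lists (grey-blue), with the length of the representative transcript (filled circles), the longest transcript (open squares) or the coding sequence (open triangles). *HRAS* is the highest and *BRAF* the lowest of the 8 per kilobase of the representative transcript. *ARAF*, *DUSP4* and *MAP2K2* lie above their red relatives with each of the lengths. With each of them *SPRY1* lies above *SPRY2* and below *SPRY4*.

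A wider list of 35 other genes of the route was set beside them, of which 33 were listed. Of these, 30 held at least 1 match to the AUA element, beside 84.8% of all listed genes with an annotated 3′UTR. All 6 receptor ligands on this list were in the table, from *BTC* with a mean normalized count of 30.2 to *TGFA* with 1328, and *AREG*, *EREG*, *EGF* and *HBEGF* had 450, 228, 70.5 and 778. The adaptors and exchange factors ranged from 254 for *GAB1* to 4935 for *PTPN11*, the phosphatase SHP2 that promotes RAS activation. Among the GTPase-activating proteins that switch RAS off, *RASA1* had 1462, *NF1* 724 and *RASA2* 267. *MAPK3*, which encodes an ERK kinase, had a mean normalized count of 735. *ERRFI1*, an inhibitor that binds the receptor itself, reached 4541, whereas *LRIG1*, which promotes receptor degradation, had 154. The median mean normalized count over the 33 listed genes was 735.

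Several of the 8 genes overlap others on the opposite strand, which matters for a count. *BRAF* overlaps the end of *NDUFB2* (mean normalized count 853), *MAP2K1* that of *SNAPC5* (203) and *SPRY4* the start of *SPRY4-AS1* (107), while *DUSP6* overlaps an unnamed lncRNA gene (55.0). The representative transcript of *BRAF* stops short of *NDUFB2*, which only other annotated *BRAF* transcripts reach. The antisense *EGFR-AS1* lies within *EGFR* and was not listed. The library kit keeps strand, but how strand entered the counting is not given in the sources used here, so reads in these overlaps may be shared. The pseudogenes *BRAFP1* and *MAP2K1P1*, copies of members that could also share reads, were not listed.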

How the data were processed

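Total RNA of MDA-MB-231 cells was sequenced in 6 libraries, 2 with shCTRL, 2 with shRBMS3-B3 and 2 with shRBMS3-C3, prepared with a stranded total RNA kit for low input. The submitters' processing notes name Salmon, DESeq2 and hg38, and their versions, settings and annotation are not given in the sources used here. The authors deposited one table with a row per gene. Its signal, per the file headers, is a mean normalized count, the average over libraries of counts divided by size factors, and is printed as the authors' mean with no error. The same table holds the authors' own comparison of knockdown and control cells in 5 columns (a fold change, its error, a statistic and raw and adjusted p-values), which were not used. The planned count test was not run, because values per library were not analysed here.

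The members, gene lists and AUA search were chosen with earlier results of these data known. The text names all members, the related genes on the wider list, and other listed genes as examples chosen after their values were seen; some genes first put on that list are not reported here. Ensembl identifiers were looked up in GENCODE release 44 (15829 of 15917 matched), with the MANE Select transcript, otherwise the Ensembl canonical one, as representative. Coordinates are 1-based, and all 57 matches were found again in hg38. Percentile and search functions were tested on simulated data. Alternatives were other transcript lengths, protein-coding genes alone and the longest 3′UTR. Python 3.11.15, numpy 2.4.6, pandas 2.3.3 and matplotlib 3.10.9 were used.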

Additional observations from a re-analysis of the deposited data

How the results depend on the processing

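No value of a single library was analysed, so no error can be given for any level, and percentiles are among listed genes only. The median percentile per kilobase of the 8 genes was 85.2, and 85.3 among protein-coding genes alone, 81.6 with the longest transcript and 91.3 with the coding length. Percentiles by coding length are among listed genes with an annotated coding sequence alone, so the genes compared changed along with the length. Of the single genes, *NRAS* moved by more than 10 percentile points, from 68.4 to 89.6 with the coding length, which leaves out its long 3′UTR. Among protein-coding genes alone, *NRAS* lay at percentile 67.0 per kilobase of transcript. The number of genes with the AUA element stayed at 7 with the longest 3′UTR, an alternative added after seeing the data. In the longest 3′UTR *BRAF* had 20 matches in place of 14, and *MAP2K1* had 2 in 3673 bases in place of 3 in 929. Among related genes, *ARAF* had 10 matches there in place of 0. Another normalization, another filter on low counts and leaving out each library were not run. No paired analysis was possible because only means over libraries, which carry no replicate number, were read.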
